A study of Rattus norvegicus with 241 samples.

Results

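The 3 genes that encode the TGFβ ligands, TGFB1, TGFB2 and TGFB3, were followed through all bulk and single-cell tables of the rat mammary gland. They were found by symbol, ignoring case, and are 3 of 21707 gene names in these tables. The study gave rats of the inbred ACI strain and the outbred SD strain either vehicle or TGFBRi (LY2157299), a drug that blocks the kinase of the type I TGFβ receptor. Both were given by mouth in 2 doses per day, TGFBRi at 75 mg/kg per dose. In virgin ACI rats the 10 days of dosing began at 35 days of age, and 3 rats per arm were taken on day 0 (D0), D7 and D14 after the last dose. In virgin SD rats they began at 24 days of age, and rats were taken at D0, with 4 rats per arm. Adult ACI rats, virgin or parous, were dosed for 10 days at an age of 18 to 24 weeks and taken at D0, with 4 rats per arm (in CD45+ cells, 3 virgin rats given TGFBRi and 2 parous rats given vehicle). In the carcinogen experiment, dosing of SD rats began at 21 days of age and lasted 10 days, after which all received 50 mg/kg of NMU (N-nitroso-N-methylurea) and were taken 87 days later. It holds 3 tumor-bearing vehicle rats and, after TGFBRi, 3 tumor-free and 3 tumor-bearing rats. In the estrogen (E2) experiment, dosing of ACI rats began at 38 days of age and lasted 21 days. After dosing the rats received pellets with 37 mg of E2 or with none. By the paper they were taken months later, at the end of the tumor experiment. Without E2 there were 4 vehicle and 3 TGFBRi-treated rats, all tumor-free, while the E2 groups were 4 vehicle rats, all with tumors, and 6 TGFBRi-treated rats, 4 tumor-free and 2 tumor-bearing. E2 and tumors therefore cannot be told apart among vehicle rats. Single cells came at D0 from sorted basal and luminal cells of 6 ACI rats (3 per arm) and 9 SD rats (3 vehicle, 6 TGFBRi), and from whole glands of 9 further SD rats (3 vehicle, 6 TGFBRi), all with the 10-day dosing of young rats of their strain.

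TGFβ ligands are secreted as latent dimers, bound to their own propeptides and to latent TGFβ binding proteins of the matrix or to anchors on the cell surface, and have to be released by integrins, proteases or thrombospondin. The freed ligand brings together the type II and type I receptors, and the type I kinase phosphorylates SMAD2 and SMAD3, which enter the nucleus with SMAD4. In the mammary gland TGFβ is known for restraining duct growth and branching during puberty and for acting on stroma and leukocytes. TGFB1 is the ligand that leukocytes and platelets carry most widely. TGFB2 and TGFB3 have more restricted expression and separate roles in development.

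The DNA just before the 3 start sites is shown because the 3 ligands bind the same receptors while TGFB1 was highest in other cells than TGFB2 and TGFB3. The sequences are the 250 bases before the RefSeq start of each gene in the rat assembly GRCr8, read 5′ to 3′ on the strand of the gene: chr1:90324062-90324311 on the plus strand for TGFB1, chr13:100792686-100792935 on the minus strand for TGFB2, and chr6:111456947-111457196 on the minus strand for TGFB3. Capitals mark the only motif found.
TGFB1: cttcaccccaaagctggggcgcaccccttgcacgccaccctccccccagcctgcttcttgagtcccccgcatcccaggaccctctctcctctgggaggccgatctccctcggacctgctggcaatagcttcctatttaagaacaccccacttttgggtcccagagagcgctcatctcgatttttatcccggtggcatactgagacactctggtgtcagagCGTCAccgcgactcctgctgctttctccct
TGFB2: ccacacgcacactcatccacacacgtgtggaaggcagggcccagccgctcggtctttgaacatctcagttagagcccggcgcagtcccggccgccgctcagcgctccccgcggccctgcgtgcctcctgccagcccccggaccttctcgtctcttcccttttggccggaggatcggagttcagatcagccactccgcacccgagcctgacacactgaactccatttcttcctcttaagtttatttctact
TGFB3: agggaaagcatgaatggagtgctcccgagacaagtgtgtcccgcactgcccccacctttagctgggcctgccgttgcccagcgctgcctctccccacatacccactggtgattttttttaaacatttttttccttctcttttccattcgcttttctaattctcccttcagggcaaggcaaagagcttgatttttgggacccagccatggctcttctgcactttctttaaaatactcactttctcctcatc
The TGFB1 sequence held a short CRE core (TGACG) on its opposite strand, 30 bases before the start, a motif that 18.2% of 33469 promoters of this length held. None of the 3 sequences held, on either strand, the SMAD box CAGAC (42.9% of promoters), the AP-1 site TGANTCA (6.34%), the full CRE TGACGTCA, which contains that core (1.59%), the GC box GGGCGG (30.5%) or the TATA box TATAAA (12.9%). G and C made up 60% of the TGFB1, 61.6% of the TGFB2 and 48.8% of the TGFB3 sequence. The median of all promoters was 51.2%.

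Bulk samples gave 4194912 to 52314784 reads on genes, with a median of 20100223. TGFB1 had reads in each of the 196 bulk units (202 samples, parts of 1 rat joined), and TGFB2 and TGFB3 had reads in 194 each, with under 10 reads in 7 units for either gene. Levels are given as CPM, reads of the gene scaled to a common total of reads on genes, or as the authors' normalized read counts. Neither is corrected for gene length, so that levels are compared between samples and cells but not between the 3 ligands. Sorts were checked by the summed CPM of marker genes. Ptprc, the gene of CD45, ran from 48.3 to 1368 CPM in CD45+ sorts and up to 47.7 CPM in basal and luminal sorts. The 6 fibroblast markers reached 88522 CPM in CD45+ sorts, 56927 in basal and 78038 in tumor EPCAM+ sorts, and the 5 basal markers reached 17314 CPM in CD45+ sorts, so that these sorts hold RNA of other cells. In bulk, fewer cells of a type and less RNA per cell cannot be told apart. The 2 epithelial samples of rat LD2LR, described as treated in 1 label and as control in the others, were taken as vehicle, and the CD45+ sample of rat LD9R, with 2 different days in its labels, as D7.

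TGFB1 was highest in the CD45+ sort and, outside the NMU experiment, TGFB3 in the luminal sort. In vehicle rats TGFB1 was higher in CD45+ than in luminal cells in all 5 data sets, by 2.96 to 4.21 on the log2 scale, and higher than in basal cells in the 4 data sets with a basal sort, by 1.64 to 4.64. TGFB3 was lower in CD45+ than in luminal cells in all 5 data sets and lower in basal than in luminal cells in 3 of 4. TGFB2 was lower in CD45+ than in luminal cells in 4 of 5 data sets. Of 39 ligand comparisons between sorts, 26 passed limma's threshold (adjusted p of 0.05 or less, log2 of TMM-scaled CPM plus 1), against 35.1% of all gene comparisons.

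In vehicle ACI rats at D0, TGFB1 had 163, 191 and 130 CPM in CD45+ cells, 8.46, 6.12 and 7.67 CPM in basal cells and 14.0, 9.12 and 8.89 CPM in luminal cells. The CD45+ values lay above all others, with a log2 difference of 4.64 from basal (SE 0.42, limma adjusted p = 5.79e-12) and 4.09 from luminal cells (adjusted p = 1.70e-10), while basal and luminal values differed by -0.55 (adjusted p = 0.442). TGFB3 had 322, 293 and 313 CPM in the luminal sort, 30.1, 33.9 and 41.5 CPM in the basal sort and 25.1, 13.5 and 22.1 CPM in the CD45+ sort. Luminal values were the highest without overlap, and the basal sort was lower by 3.21 (SE 0.60, adjusted p = 5.16e-05). For TGFB2 the values were 28.1, 30.6 and 32.5 CPM in luminal, 14.7, 18.8 and 18.1 CPM in basal and 12.3, 0.883 and 18.2 CPM in CD45+ cells. CD45+ and basal values overlapped, and the CD45+ sort was lower than luminal by 1.80 (SE 0.52, adjusted p = 0.00598), a call that rests on rat LD3R, without which it was lower by 0.84 (adjusted p = 0.304). It was also lost with edgeR (adjusted p = 0.0604).

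The SD rats gave the same order for TGFB3, with 132 to 295 CPM in luminal, 23.8 to 45.4 CPM in basal and 13.3 to 53.6 CPM in CD45+ cells, the last 2 overlapping. TGFB2 was lower in their CD45+ cells (0.436 to 8.53 CPM) than in basal cells (11.2 to 19.5 CPM), by 1.87 (SE 0.46, adjusted p = 0.00228). In adult virgin rats TGFB3 was the ligand for which all 3 sorts differed from each other, with the basal sort lower than luminal by 2.31 (adjusted p = 1.37e-04) and the CD45+ sort lower than basal by 1.65 (adjusted p = 0.00354). Their CD45+ cells were also lower than basal cells in TGFB2, by 1.08 (adjusted p = 0.0411), and this call was lost without rat C_N1R (adjusted p = 0.187), C_N2N (0.0898) or C_N2R (0.0541) and with edgeR (0.0709).

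In the glands of tumor-bearing NMU rats given vehicle TGFB1 was higher in basal than in luminal cells. It had 32.3, 25.2 and 27.4 CPM in basal and 3.88, 0.743 and 4.20 CPM in luminal cells, without overlap and with basal higher by 2.57 (SE 0.50, limma adjusted p = 3.49e-04). Tumor-bearing rats given TGFBRi had 17.4, 6.16 and 4.69 CPM in basal and 5.19, 7.53 and 5.37 CPM in luminal cells, which overlapped. TGFB3 of the vehicle rats was 33.6, 31.3 and 61.5 CPM in basal and 20.1, 19.2 and 117 CPM in luminal cells, which overlapped (-0.47, adjusted p = 0.516). Mean luminal levels in these vehicle rats were 2.94 CPM of TGFB1 and 52.04 CPM of TGFB3, against 6.97 to 12.6 and 119 to 309 CPM in vehicle rats of the young ACI (D0), SD, adult virgin and E2 (without E2) data sets, and the data sets were not tested against each other. TGFB2 was lower in basal than in luminal cells by 1.63 (adjusted p = 0.0183), but not without rat C2N (adjusted p = 0.116), C2R (0.0561) or C5R (0.141) or on CPM without TMM scaling (-1.03, adjusted p = 0.160). TGFB1 was higher in CD45+ than in basal cells by 1.64 (adjusted p = 0.0182; 0.110 without C2N and 0.160 without C5R), and TGFB3 was lower in CD45+ than in luminal cells by 1.44 (adjusted p = 0.0164; 0.0682 without C2R and 0.170 without TMM scaling, where the difference was -0.93). The CD45+ sorts of these rats had Ptprc of 88.8 to 255 CPM beside fibroblast markers of 12590 to 27573 CPM. In the E2 experiment, where CD45+ sorts had Ptprc of at least 714 CPM, CD45+ and luminal cells of vehicle rats without E2 differed by 4.19 in TGFB1, by -3.63 in TGFB2 and by -5.73 in TGFB3 (adjusted p of 8.23e-09, 7.34e-08 and 1.71e-11).

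**Figure D1:**
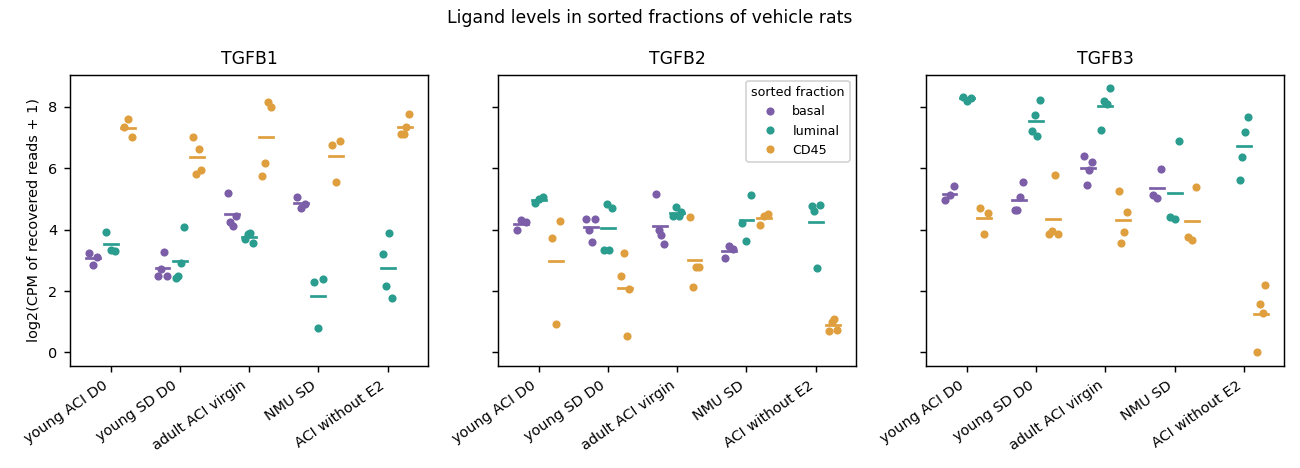
CPM of each ligand on the log2(CPM + 1) scale in sorted basal, luminal and CD45+ cells of vehicle rats, 1 point per rat, by data set. TGFB1 is highest in CD45+ cells in all 5 data sets, and TGFB3 is highest in luminal cells except in NMU rats, where basal and luminal values overlap.

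Of 23 measured genes of the TGFβ pathway (receptors, SMADs, latency and activation, targets), 9 to 13 were higher and 0 or 1 lower in basal than in luminal cells of the 4 data sets. The counts higher were 9 in young ACI, 13 in SD, 9 in adult and 12 in NMU rats, where 12.1%, 22.6%, 16.7% and 12.9% of all genes were higher. ITGB6, a subunit of an integrin that frees latent TGFβ, was higher in the basal sort of young ACI rats by 4.39, and LTBP4, a latent TGFβ binding protein, by 4.34 (limma adjusted p of 2.63e-09 and 3.65e-04). NRROS, which anchors latent TGFB1 on myeloid cells, was higher in the CD45+ than in the basal sort by 7.73 in young ACI and by 5.43 in SD rats (adjusted p of 5.41e-18 and 8.11e-11).

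Single cells of the whole gland placed TGFB1 in leukocytes and endothelium, TGFB2 in pericytes, lymphatic endothelium, luminal progenitors, fibroblasts and smooth muscle, and TGFB3 in smooth muscle, luminal progenitors, fibroblasts, pericytes and lymphatic endothelium. The 103524 cells were clustered without the ligands, and clusters took names only from marker genes. Smooth muscle genes were among the leading genes of the basal-like class, so that its values and the steps next to it are less certain. Values are UMIs (counted molecules) of a class summed per rat, on the same CPM scale, as the mean of 3 vehicle rats. Neighbours in the order of CPM were compared by edgeR with the rat as a block. Fitted steps are on the TMM scale and can differ in size or sign from the CPM values. From B- to macrophage-like cells the TGFB1 step was -0.29, and from smooth muscle- to luminal progenitor-like cells the TGFB3 step was -0.43. Of 36 such steps, added as tests after the data were seen, 8 passed an adjusted p of 0.05, against 33.5% of all gene comparisons.

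TGFB1 had 696 CPM in NK-like, 507 in B-like and 502 in macrophage-like cells, 408 in lymphatic and 172 in vascular endothelium-like cells and 249 in T-like cells. NK-, B- and macrophage-like cells did not differ from each other in the order beyond the spread (adjusted p of 0.747 and 0.225). The fitted step from macrophages to lymphatic endothelium was a fall (0.85 on the log2 scale, edgeR adjusted p = 7.97e-04), larger than their CPM show. Schwann-like (84.7 CPM), pericyte-like (73.1), mature luminal-like (64.6), vascular smooth muscle-like (63.8), basal-like (50.4) and fibroblast-like cells (45.97) followed, with steps down to Schwann-like (1.38, adjusted p = 1.93e-06) and to mature luminal-like cells (0.49, adjusted p = 0.0387). Luminal progenitor-like cells were lowest, at 8.20, 7.10 and 6.95 CPM in the 3 rats. They lay below fibroblast-like cells by 2.51 (adjusted p = 6.43e-12).

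For TGFB2 the order began with pericyte-like cells at 48.1 CPM (64.1, 58.1 and 22.2 CPM by rat), lymphatic endothelium at 35.8, luminal progenitor-like cells at 28.1, fibroblasts at 25.9 and vascular smooth muscle at 22.9. None of these 5 differed from the next (adjusted p of 0.154 to 0.736). Schwann-like (7.28 CPM), vascular endothelium-like (6.96) and basal-like cells (6.85) lay lower, with a step of 1.92 below smooth muscle (adjusted p = 0.0155). NK-like (3.01) and macrophage-like cells (2.86) came before mature luminal-like (0.718), T-like (0.607) and B-like cells (0.588). The step from macrophages to mature luminal-like cells passed the test (2.59, adjusted p = 0.0106), but not without cells that carried markers of another compartment (0.86, adjusted p = 0.816).

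TGFB3 had 21.6 CPM in vascular smooth muscle-like, 21.4 in luminal progenitor-like, 17.1 in fibroblast-like, 13.9 in pericyte-like and 13.4 in lymphatic endothelium-like cells. No step among these 5 passed the test (adjusted p of 0.231 to 0.542). Schwann-like (4.595), macrophage-like (4.05), mature luminal-like (3.595) and basal-like cells (2.97) came next, above vascular endothelium (1.04; step of 1.23, adjusted p = 0.0284), which lay above B-like cells (0.446; step of 2.28, adjusted p = 0.0150). T-like cells had 0.292 CPM, and no TGFB3 UMI was found in the 332 NK-like cells of vehicle rats, which allows a share of up to 0.904% of cells with a UMI (3 counts, counting error only). At their median depths of 2029 to 2484 UMIs per rat this is no limit on cells that express the gene. Between the 2 luminal classes, mean TGFB1 was higher in mature luminal-like cells, and mean TGFB2 and TGFB3 were higher in progenitor-like cells. This pair was not tested directly.

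**Figure D2:**
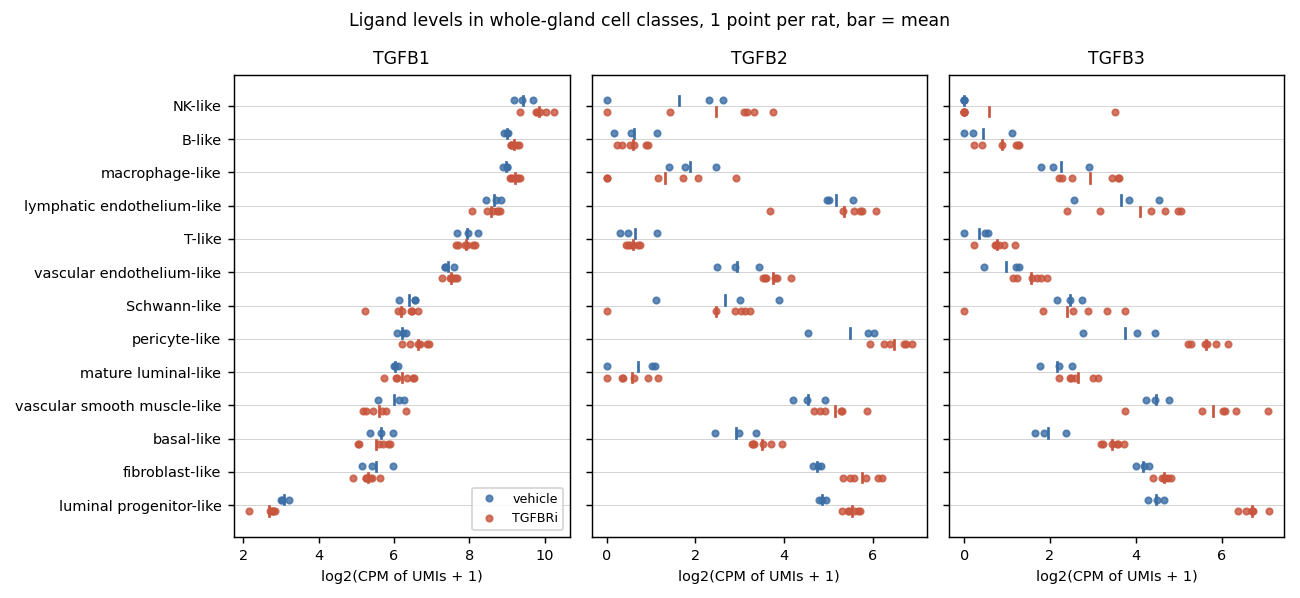
CPM of each ligand on the log2(CPM + 1) scale in 13 cell classes of the whole SD gland, 1 point per rat, vehicle (blue, n = 3) and TGFBRi (red, n = 6), with the mean as a bar. Luminal progenitor-like cells have the lowest TGFB1, and their TGFB3 rises from 18.4 to 24.3 CPM with vehicle to 82.9 to 137 CPM after TGFBRi.

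The share of a ligand's UMIs that each class supplied in vehicle glands also depended on how many cells were captured. The 3 rats differed widely, so each share is given as the mean with its range. B-like cells, 19.5% of cells (8.28 to 25.5%), supplied 26.6% of TGFB1 UMIs (10.5 to 34.9%), vascular endothelium 10.1% (7.01 to 13.1%) and macrophages 9.52% (5.84 to 16.2%), and unnamed clusters 21.9% (18.9 to 27.5%). Fibroblast-like cells, 12.2% of cells (5.07 to 22.8%), supplied 30.6% of TGFB2 UMIs (15.6 to 52.1%) and 32.4% of TGFB3 UMIs (17.8 to 53.04%). Luminal progenitor-like cells, 6.19% of cells (2.88 to 10.4%), supplied 18.4% of TGFB2 (6.20 to 30.1%) and 23.8% of TGFB3 UMIs (6.61 to 35.4%). Unnamed clusters, 13.6% of cells, supplied 21.6% of TGFB2 (12.9 to 25.98%) and 20.2% of TGFB3 UMIs (9.04 to 26.8%).

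The genes whose mean level over the 13 classes (9 rats) was most like that of TGFB1 were SIPA1, DENND5A, GDI2, PIP5K1C and GNA13, with Pearson's r of 0.915 to 0.901 among 11288 genes. Those most like TGFB2 were SLC39A14, CCDC141, LRIG3, ADAMTS4 and NREP (r of 0.915 to 0.853), and those most like TGFB3 were FAM110B, IGFBP5, FAM20C, PRICKLE2 and SDC2 (0.924 to 0.882). The classes share libraries, so these values describe likeness only.

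Sorted single cells, made with a 3′ chemistry where whole glands used a 5′ chemistry, are given on their own scale. In vehicle rats TGFB3 had 254 ± 38.4 CPM in luminal progenitor-like and 9.12 ± 1.39 CPM in mature luminal-like cells of ACI rats, and 159 ± 17.5 and 22.1 ± 10.7 CPM in SD rats (SD, n = 3). TGFB2 followed, with 42.8 ± 9.76 and 0.270 ± 0.34 CPM in ACI and 51.4 ± 6.07 and 6.08 ± 3.24 CPM in SD rats. TGFB1 went the other way, with 5.48 ± 1.24 CPM in progenitors and 45.6 ± 2.59 CPM in mature luminal cells of ACI rats, and 2.83 ± 0.61 and 35.9 ± 2.99 CPM in SD rats. In each pair the values of the 3 rats did not overlap. These class differences were not tested in sorted cells. Secretory basal cells (SBC) were taken as any cells of the basal sort with UMIs of at least 3 of 5 marker genes. They had 25.03 ± 11.7 CPM of TGFB1, 25.8 ± 12.6 of TGFB2 and 26.4 ± 18.9 of TGFB3 in vehicle SD rats. No cluster class was required, so fibroblast-like, smooth muscle-like or unnamed cells of that sort may be among them.

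Against vehicle, 1 bulk ligand test passed limma's threshold, with TGFB3 lower in CD45+ cells of ACI rats at D0. This was 1 of 96 ligand tests in 32 comparisons, a count near the 0.588% of all gene tests called. The call was also lost in several refits given below. Of the 96 tests 14 had an unadjusted p under 0.05. Over 35 comparisons, these 32 and the 3 described next, 43383 of 487317 gene tests were under 0.05 as well. In 3 further comparisons, between tumor-free and tumor-bearing NMU rats that all received TGFBRi, 1 of 9 ligand tests passed, against 1.82% of all gene tests, with TGFB1 higher in basal cells of the tumor-free rats. Over both kinds 0.691% of all gene tests were called. Of the 14 tests against vehicle with an unadjusted p under 0.05, those not described further were TGFB3 of adult virgin basal cells (-0.68), TGFB1 (1.01) and TGFB2 (-0.71) of ACI luminal cells at D7 and TGFB2 of CD45+ cells of tumor-bearing NMU rats (-1.26), with adjusted p of 0.125 to 0.597. For TGFBRi against vehicle edgeR on the recovered reads made no call and DESeq2 made 5, and both called basal TGFB1 between tumor-free and tumor-bearing rats. The shares of all genes called by edgeR and DESeq2 are not given here, so these counts have no share beside them.

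In CD45+ cells of ACI rats at D0, TGFB3 had 575, 394 and 517 normalized read counts with vehicle and 34.98, 211 and 69.5 after TGFBRi. The groups did not overlap, and the log2 change was -2.59 (SE 0.60, limma adjusted p = 0.0322), in a comparison that called 2.85% of genes. The call was lost without rat LD10R (adjusted p = 0.139), LD3R (0.0837) or LD7R (0.0917), with edgeR (adjusted p = 0.0833) and in a fit of the D0 rats alone (adjusted p = 0.171). In the same samples fibroblast markers summed to 12479 to 32126 CPM with vehicle and 883 to 7182 CPM after TGFBRi, basal markers to 105.97 to 335 and 3.88 to 6.39 CPM, and smooth muscle markers to 130 to 293 and 12.7 to 28.6 CPM. Their part in the TGFB3 change was not tested. TGFB1 had 3730, 5576 and 3026 normalized read counts with vehicle and 1919, 2118 and 2570 after TGFBRi, without overlap, for a change of -0.86 (adjusted p = 0.0837, and 0.0301 without rat LD4R or 0.0191 with DESeq2). Of the 23 pathway genes 5 fell and none rose in these cells, where 2.01% of all genes fell, among them LTBP2 (-8.31, adjusted p = 9.80e-07), LTBP4 (-3.33), CTGF (-2.30), a matricellular target gene of TGFβ, and LTBP3 (-2.11).

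The TGFBRi effect in CD45+ cells was also compared between days. The log2 change of TGFB3 was higher at D14 than at D0 by 2.88 (limma adjusted p = 0.130) and at D7 than at D0 by 2.07 (adjusted p = 0.404). For TGFB1 these differences were 1.14 (adjusted p = 0.146) and 1.20 (adjusted p = 0.325). Of 27 tests of a difference of the TGFBRi effect between days or parities none passed limma's threshold, against 0.13% of all gene tests. There were 7 at an unadjusted p under 0.05, as were 12336 of 132473 gene tests. No call was made by edgeR and 3 by DESeq2. LTBP2 did differ, by 7.52 between D14 and D0 (adjusted p = 6.94e-04).

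In basal cells of young rats no ligand was called. At D0 in ACI rats TGFB2 had 230, 289 and 259 normalized read counts with vehicle and 1607, 469 and 520 after TGFBRi. The groups did not overlap, and the change was 1.502 (SE 0.42, limma adjusted p = 0.0588) where the median of all genes was 0.30. Without rat LD10R, the highest, it was 0.94. The other TGFBRi samples had 6562769 and 4194912 reads on genes, against 12382292 to 18781674 in the vehicle samples. It passed the threshold with DESeq2 (adjusted p = 0.00264), with a pseudocount of 5 (0.0424) and with the D0 rats alone (0.0357). Ptprc was 15.5 to 20.7 CPM in the vehicle and 0.05 to 7.14 CPM in the TGFBRi samples, and fibroblast markers 2663 to 32972 and 3462 to 8893 CPM. At D7 the values were 126, 99.8 and 195 with vehicle and 242, 257 and 311 after TGFBRi (change of 0.99, adjusted p = 0.833), again without overlap. At D14 they were 359, 289 and 346 with vehicle and 284, 308 and 176 after TGFBRi, which overlapped, and the change went the other way (-0.41, adjusted p = 1.0). The effect at D14 was lower than at D0 by 1.91 (adjusted p = 0.253 by limma and 0.0359 by DESeq2). In basal cells of SD rats they were 218, 167, 121 and 222 against 196, 246, 363 and 437, which overlapped (change of 0.74, adjusted p = 0.980). PMEPA1, a feedback target of TGFβ, was the only pathway gene called in ACI basal cells at D0 (-1.73, adjusted p = 0.0273), where 0.837% of all genes fell.

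TGFB3 changes in luminal cells had both signs, and none passed. In young ACI rats at D0, TGFB3 had 5061, 4512 and 4910 normalized read counts with vehicle and 2695, 4285 and 2101 after TGFBRi. The groups did not overlap, and the change of -0.74 did not pass (limma adjusted p = 0.468), but did with the D0 rats alone (adjusted p = 0.0408). At D7 it had 3170, 1442 and 5333 with vehicle and 2124, 4868 and 4314 after TGFBRi, which overlapped (change of 0.29, adjusted p = 0.904). At D14 it had 9029, 8084 and 6814 normalized read counts with vehicle and 4499, 2796 and 1233 after TGFBRi. These groups did not overlap either, and the change of -1.67 did not pass (limma adjusted p = 0.311). In SD rats at D0 it had 2950, 2793, 2620 and 4002 with vehicle and 3463, 2691, 2024 and 2064 after TGFBRi. These values overlapped, and no gene of that comparison was called. In tumor-bearing NMU rats TGFB3 had 560, 613 and 2165 with vehicle and 1822, 3740 and 2978 after TGFBRi, which overlapped, and was higher after TGFBRi by 1.59 (adjusted p = 0.111). Tumor-free NMU rats given TGFBRi had 1175, 1170 and 1407, lower than the tumor-bearing by 1.13 (adjusted p = 0.751).

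In CD45+ cells of NMU tumors TGFB1 had 1724, 991 and 1947 normalized read counts with vehicle and 599, 530 and 290 after TGFBRi, without overlap. Its change of -1.72 (SE 0.48) did not pass (limma adjusted p = 0.615). Macrophage markers summed to 562 to 5899 CPM with vehicle and 327 to 1008 CPM after TGFBRi and Ptprc to 166 to 601 and 608 to 1225 CPM, and their part was not tested.

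In adult virgin rats TGFB1 of basal cells had 954, 409, 388 and 470 normalized read counts with vehicle and 1149, 761, 1668 and 734 after TGFBRi. Vehicle rat C_N1N lay inside the TGFBRi range, and the change of 0.98 (adjusted p = 0.0687) passed without it (1.27, adjusted p = 0.0221), without D_N1R (0.0445), without D_N2R (0.0479) or with DESeq2 (0.0448). Of the 23 pathway genes 6 fell in these cells, where 6.23% of all genes fell and the median of all genes was -0.25, among them LTBP2 (-2.67) and the type I receptor TGFBR1 (-2.39, adjusted p = 6.14e-04).

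**Figure D3:**
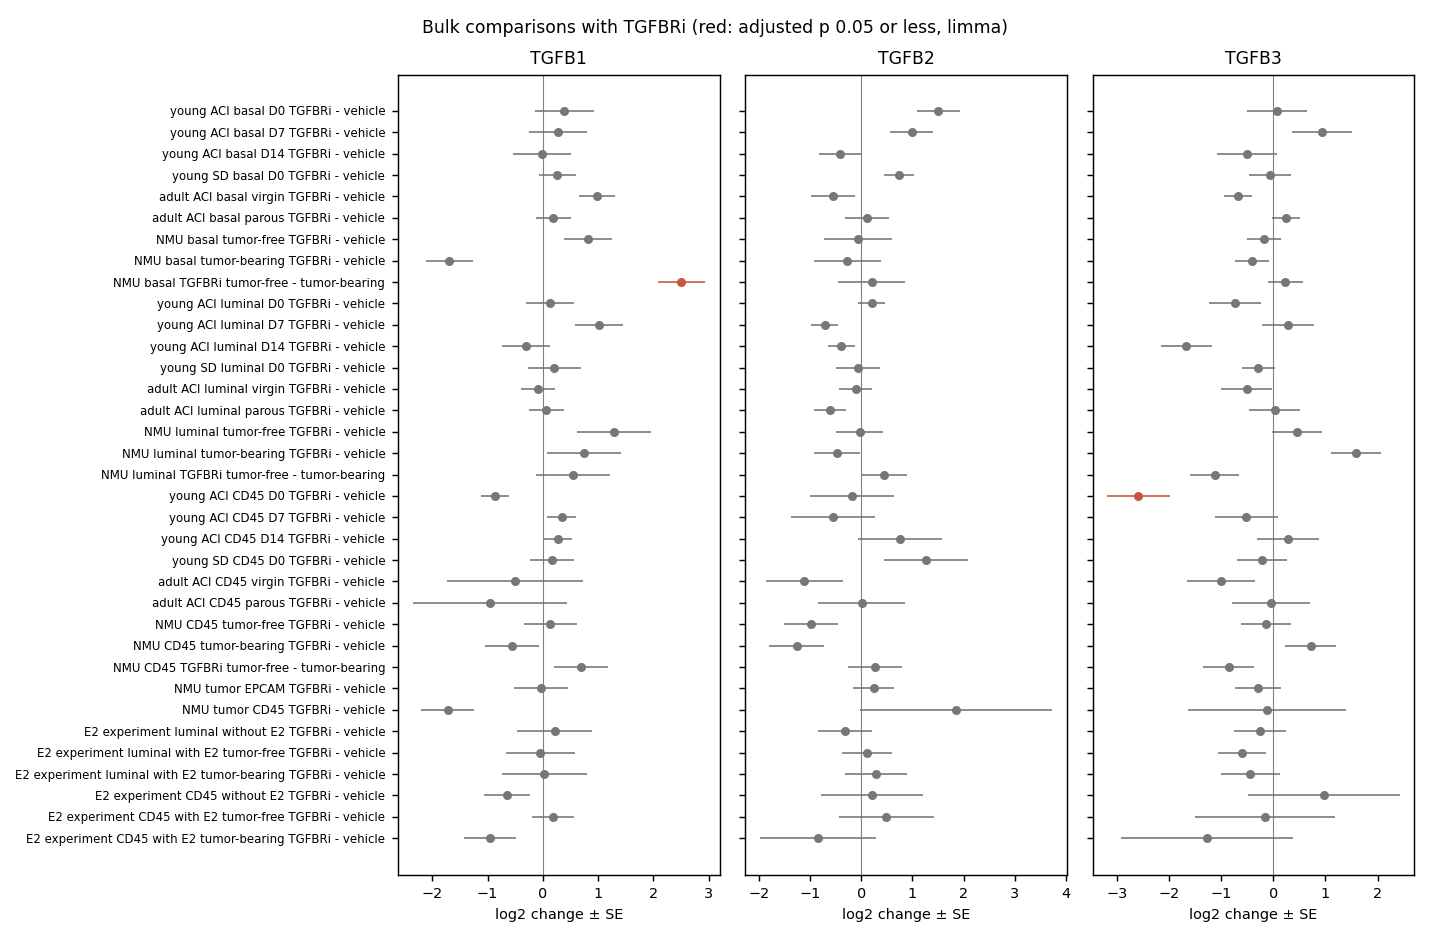
Log2 change of each ligand, TGFBRi minus vehicle or tumor-free minus tumor-bearing, with its SE in the 35 bulk comparisons, in red where the limma adjusted p is 0.05 or less. The 2 red points are TGFB1 in NMU basal cells (2.51) and TGFB3 in CD45+ cells of ACI rats at D0 (-2.59).

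The NMU rats given TGFBRi differed in basal TGFB1 by tumor status. It had 639, 894 and 820 normalized read counts in tumor-free rats, 301, 102.8 and 80.4 in tumor-bearing rats and 494, 406 and 427 in tumor-bearing vehicle rats. No groups overlapped, with vehicle rats between both TGFBRi groups. The tumor-free rats were higher than the tumor-bearing by 2.51 (SE 0.43, limma adjusted p = 0.00815), in a comparison that called 5.58% of genes and had a median of 0.24 over all genes. The call held without each of the 6 rats in turn but not in a fit of the 2 groups alone (adjusted p = 0.0511). Against vehicle, tumor-bearing TGFBRi rats were lower by 1.69 (SE 0.43, adjusted p = 0.0673, and 0.00314 without rat D2N or 0.0224 with DESeq2). Beside this, macrophage markers summed to 44.3 to 1695 CPM in tumor-free and 53.4 to 96.5 CPM in tumor-bearing rats and basal markers to 16774 to 26198 and 26555 to 33940 CPM, and their part was not tested. TGFBR2, the type II receptor, was called in both comparisons, higher in tumor-free rats by 1.55 (adjusted p = 0.0236) and lower in tumor-bearing TGFBRi than in vehicle rats by 1.55 (adjusted p = 0.0461). These 2 comparisons share the tumor-bearing TGFBRi rats.

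**Figure D4:**
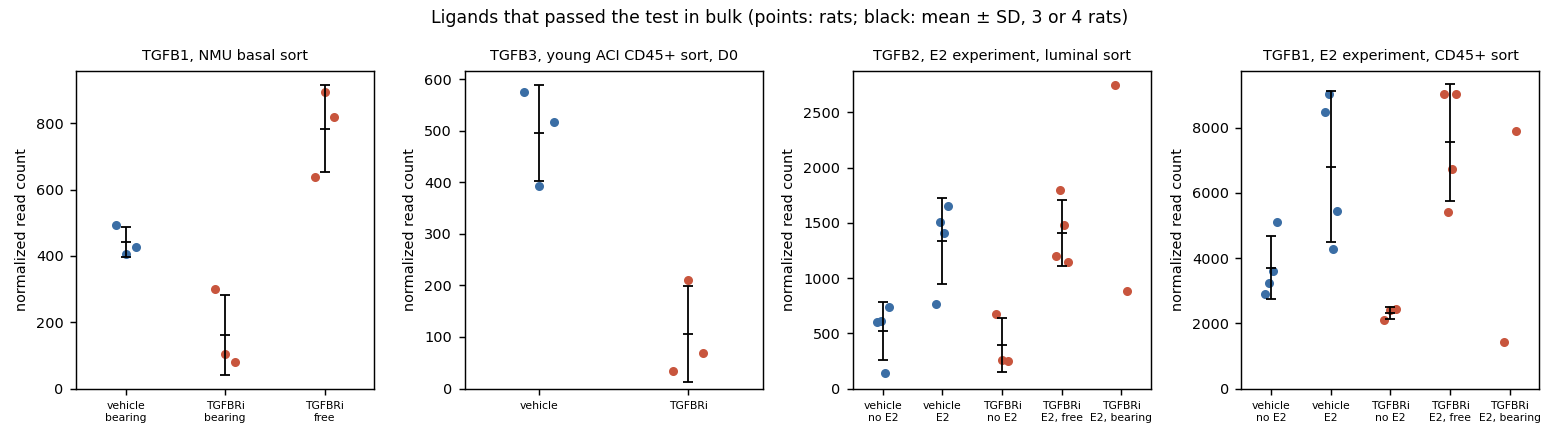
Normalized read counts per rat in 4 bulk comparisons with a called ligand, with the mean and SD where a group has 3 or 4 rats. TGFB1 of tumor-free TGFBRi-treated NMU rats (639 to 894) lies above that of the tumor-bearing (80.4 to 301), and TGFB3 of ACI CD45+ cells at D0 falls from 394 to 575 with vehicle to 34.98 to 211 after TGFBRi.

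In single cells of the whole gland TGFB3 and TGFB2 were called higher after TGFBRi in several classes. Summed per rat and class and compared by edgeR (adjusted p of 0.1 or less, the study's threshold for single cells), 9 of 35 ligand tests in 12 classes passed, against 18.9% of all gene tests. The classes with a ligand call called 9.73 to 32.3% of all genes, so the number of calls is not read as a result about the ligands. TGFB3 was called higher in luminal progenitor-like, pericyte-like and vascular smooth muscle-like cells. TGFB2 was called higher in fibroblast-, luminal progenitor-, pericyte- and vascular endothelium-like cells, and TGFB1 lower in luminal progenitor- and fibroblast-like cells. With each rat left out, only some of these calls held throughout. They were TGFB3 in luminal progenitor- and pericyte-like cells and TGFB2 in luminal progenitor- and fibroblast-like cells. Called or not, TGFB3 was higher after TGFBRi in 11 of 11 tested classes, TGFB2 in 9 of 12 and TGFB1 in 4 of 12. Higher TGFB3 was therefore not limited to the classes with a call, but in lymphocytes it rests on few UMIs. T-like cells had 3 TGFB3 UMIs in all with vehicle and 22 after TGFBRi, and B-like cells 3 and 37. Whether such low counts come from the cells themselves was not tested. The median change over the classes was 0.63 for TGFB3, 0.51 for TGFB2 and -0.08 for TGFB1, while the median of all genes in a class lay between -0.03 and 0.10. All classes come from the same 9 libraries, so that their changes are not independent. Without rat veh4, TGFB1 of NK-like cells (0.62, edgeR adjusted p = 0.0537) and TGFB3 of B-like cells (3.44, adjusted p = 0.0638), at under 2 CPM per rat, would have been called too. The basal-like class was not tested between treatments because of its smooth muscle genes. Its TGFB3 had 2.13 to 4.17 CPM with vehicle and 8.06 to 12.2 CPM after TGFBRi.

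TGFB3 of luminal progenitor-like cells had 18.4, 21.4 and 24.3 CPM in vehicle rats and 82.9 to 137 CPM (median 103.4) in 6 TGFBRi-treated rats. No values overlapped, and the change was 2.21 (SE 0.23, edgeR adjusted p = 3.20e-04), in a class that called 29.5% of genes. The call held with each of the 9 rats left out in turn. With each cell thinned to 1000 UMIs, 1.98 ± 0.41% of these cells had a TGFB3 UMI with vehicle and 9.84 ± 1.75% after TGFBRi (SD), against 14.0% and 53.6% without thinning. T-like cells, at 0.29 and 0.74 CPM of TGFB3, had 0.07% and 0.26% without thinning. The cells had median UMI counts of 4756 to 9533 per vehicle rat and 6378 to 13465 per TGFBRi rat. TGFB2 of the same class had 28.0, 26.4 and 29.8 CPM with vehicle and 38.7 to 51.3 CPM (median 45.1) after TGFBRi, without overlap (change of 0.59, SE 0.17, adjusted p = 0.0213). TGFB1 had 8.20, 7.10 and 6.95 CPM with vehicle and 3.47 to 6.19 CPM (median 5.82) after TGFBRi, without overlap (change of -0.57, SE 0.26, adjusted p = 0.0872). That call was lost without ly1, ly2, ly6, ly11, veh2 or veh4 (adjusted p of 0.119 to 0.134), without veh1 (0.380) and without a low-count filter (0.106). In these cells 6 of 23 pathway genes fell and 1 rose, a share of calls near the 29.5% of all genes. Among those that fell were ITGB6 (-3.52), LTBP2 (-3.15) and CCN2, another symbol for CTGF (-2.60), and the gene that rose was TGFBR3, the coreceptor that presents the ligands (2.13, adjusted p = 0.00113).

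Sorted luminal progenitor-like cells did not show this rise of TGFB3. In ACI rats they had 256, 214 and 291 CPM with vehicle and 142, 170 and 126 CPM after TGFBRi, without overlap and with a change of -0.44 (SE 0.15, edgeR adjusted p = 0.0280), in a class that called 28.1% of genes. The call was lost without rat ACI9 (adjusted p = 0.122). In SD rats they had 139 to 169 CPM with vehicle and 75.8 to 104.9 CPM in 5 TGFBRi rats and 176 CPM in the sixth, SD13, for a change of -0.31 (adjusted p = 0.442). The TGFBRi effect in whole SD glands exceeded that in sorted SD cells by 2.48 (adjusted p = 6.13e-04), where 25.7% of genes differed, and that in sorted ACI cells by 2.63 (adjusted p = 3.83e-05), where 24.9% differed. These tests were added after the data were seen. The experiments differ in chemistry, sorting, rats and the clusters behind each class, and the whole SD gland and sorted ACI experiments also in strain and in age at first dose (24 and 35 days), and the parts of these cannot be told apart. Within sorted SD cells the clusters themselves split by treatment, and 1 progenitor cluster held 94.4% vehicle cells.

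**Figure D5:**
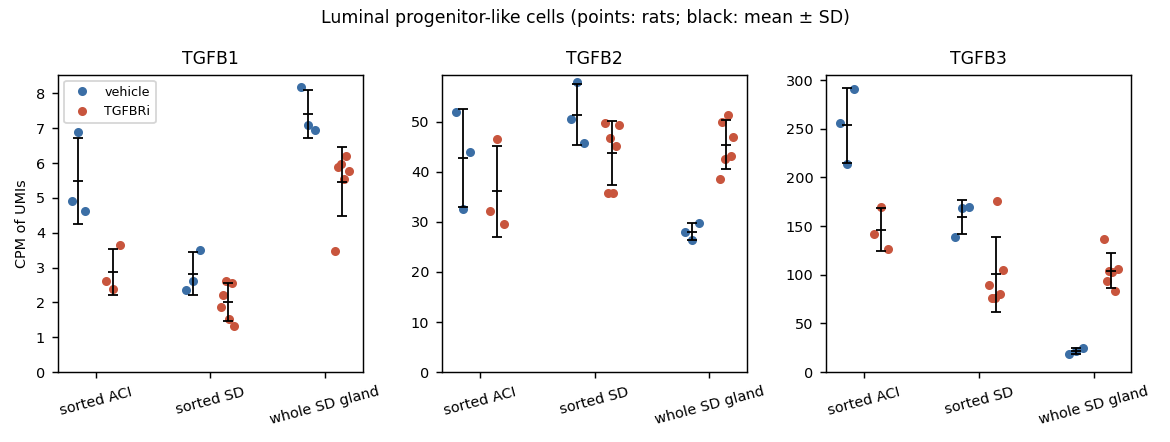
CPM of each ligand in luminal progenitor-like cells of sorted ACI, sorted SD and whole SD gland experiments, 1 point per rat, with mean and SD. TGFB3 rises after TGFBRi in whole glands (21.4 to 104.3 CPM in the mean) and has lower means after TGFBRi in both sorted experiments (254 to 146 and 159 to 100 CPM).

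Stromal cells of the whole gland also had more TGFB2 or TGFB3 after TGFBRi. In pericyte-like cells (28.8% of genes called) TGFB3 had 15.2, 5.78 and 20.7 CPM with vehicle and 36.2 to 69.5 CPM (median 48.6) after TGFBRi, without overlap and with a change of 1.55 (SE 0.33, edgeR adjusted p = 0.00284). In fibroblast-like cells (29.6% called) TGFB2 had 27.3, 26.4 and 24.1 CPM with vehicle and 39.3 to 73.5 CPM (median 51.4) after TGFBRi, again without overlap (change of 0.88, SE 0.23, adjusted p = 0.0128). Both calls held with each rat left out. TGFB2 of pericyte-like cells had 64.1, 58.1 and 22.2 CPM with vehicle and 59.98 to 117 CPM (median 92.7) after TGFBRi, which overlapped. Its rise of 0.68 (adjusted p = 0.0999) was a call lost without ly1, ly2, ly4, ly6 or ly11 (adjusted p of 0.110 to 0.169), without veh4 (0.31, adjusted p = 0.272) and without mixed cells (0.138). TGFB1 of fibroblast-like cells had 61.9, 41.4 and 34.5 CPM against 28.9 to 48.1 CPM (median 38.8), which overlapped. The change of -0.43 (adjusted p = 0.0928) was a call lost without ly1, ly2, ly4, ly11 or ly14 (0.103 to 0.141) and without veh1 (-0.25, adjusted p = 0.343). TGFB2 of vascular endothelium-like cells (32.3% called) had 4.63, 6.37 and 9.87 CPM against 10.4 to 16.7 CPM (median 11.96), without overlap. Its rise of 0.62 (adjusted p = 0.0791) was a call lost without ly2, ly4, ly11, veh1 or veh2 (0.113 to 0.299). With 1 rat left out this rise ran from 0.40 to 0.997. In vascular smooth muscle-like cells (9.73% called) TGFB3 had 17.8, 20.6 and 26.2 CPM with vehicle and 12.3 to 134 CPM (median 65.1) after TGFBRi, which overlapped in rat ly1 with 2 UMIs. The change was 1.61 (SE 0.46, adjusted p = 0.0418; 0.156 without veh2). Of 25 measured pathway genes 7 fell and 2 rose in fibroblast-like cells, among them CCN2 (-1.94) and TGFBR3 (1.12, adjusted p = 0.0016). In smooth muscle-like cells CCN2 (-2.07) was the only call among 24.

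Over all cells of a gland library, every TGFBRi-treated rat lay above every vehicle rat in each ligand, as did 20.5% of all genes. TGFB3 had 7.66, 8.11 and 12.01 CPM with vehicle and 22.4 to 35.1 CPM (median 29.2) after TGFBRi. TGFB2 had 13.7, 15.7 and 15.7 against 18.98 to 26.2 CPM (median 22.5) and TGFB1 135, 134 and 127 against 151 to 226 CPM (median 182). Captured cells also differed, with T-like cells at 5.73 to 10.7% with vehicle and 9.94 to 20.5% after TGFBRi. After TGFBRi luminal progenitor-like cells supplied 49.95% of TGFB3 UMIs at 6.97% of cells, and B-like cells 37.8% of TGFB1 UMIs at 24.5% of cells.

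In the sorted single-cell experiments 2 of 11 ligand tests passed in ACI rats, against 28.1% of all gene tests, and 2 of 15 in SD rats, against 24.1%. TGFB2 of the ACI basal sort had 11.9, 12.5 and 9.71 CPM with vehicle and 11.99, 17.3 and 14.1 CPM after TGFBRi, which overlapped, with a fitted change of 0.55 (SE 0.20, edgeR adjusted p = 0.0278) on the TMM scale, where 32.9% of genes were called. In the SD basal sort (24.7% called) TGFB1 had 18.5, 18.4 and 11.02 CPM with vehicle and 15.0 to 30.9 CPM (median 22.1) after TGFBRi, which overlapped (change of 0.92, SE 0.35, adjusted p = 0.0771). That call was lost without SD1, SD2, SD11, SD12 or SD13 (adjusted p of 0.108 to 0.168) and without SD3 (0.293). In the SD luminal sort (31.9% called) TGFB3 had 90.4, 135 and 113 CPM with vehicle and 53.2 to 73.8 CPM (median 60.6) after TGFBRi, without overlap (change of -0.49, SE 0.19, adjusted p = 0.0625), a call lost without SD1 (0.116), SD2 (0.225) or SD3 (0.164).

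No ligand was called between days or between parous and virgin rats. Among vehicle ACI rats TGFB2 of luminal cells had 443, 472 and 509 normalized read counts at D0, 984, 770 and 1016 at D7 and 785, 950 and 749 at D14. D0 lay below both later days, by 0.95 (limma adjusted p = 0.106) and 0.80 (adjusted p = 0.307). None of 27 ligand tests between days passed limma's threshold, against 0.193% of all gene tests, with no call by edgeR and 2 by DESeq2. Before adjustment 7 had a limma p under 0.05, as did 14799 of 136755 gene tests. Of 18 tests between parous and virgin rats none passed either, against 1.97% of all gene tests, with none by edgeR and 1 by DESeq2. Before adjustment 2 had a limma p under 0.05, as did 6875 of 82606 gene tests. In basal cells of TGFBRi-treated rats TGFB1 had 553, 596, 461 and 505 normalized read counts in parous and 1149, 761, 1668 and 734 in virgin rats. The parous values all lay lower, by 0.95 (adjusted p = 0.0631, and 0.0436 without rat D_N1R or 0.0251 with DESeq2). Of the 23 pathway genes 9 were higher in these parous rats, where 8.79% of all genes were higher and the median of all genes was 0.24, among them TGFBR1 (2.58), THBS1, a thrombospondin that activates latent TGFβ (2.04), LTBP1 (1.92) and LTBP2 (1.69).

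With E2, tumor-free TGFBRi-treated rats had more TGFB2 in luminal and more TGFB1 in CD45+ cells than those without E2. Of 12 ligand tests 2 passed limma's threshold, against 2.98% of all gene tests. Luminal TGFB2 had 675, 259 and 251 normalized read counts without E2 and 1198, 1800, 1485 and 1150 with E2. The groups did not overlap, and the change was 1.97 (SE 0.53, limma adjusted p = 0.0426), where 4.58% of genes were called. It was called in 1 of the 7 refits that left out a rat, and was lost without A4-15 (adjusted p = 0.0763), A4-16 (0.111), A4-20 (0.127), A4-24 (0.0691), A4-4 (0.0842) or A4-40 (0.163) and with edgeR (0.0681). Luminal progenitor markers summed to 20074 to 28354 CPM with E2 and 7506 to 9333 CPM without, and mature luminal markers to 64.6 to 109 and 409 to 498 CPM. Their part was not tested. The progenitor list holds CSN3, a casein gene, so its sum does not measure the share of progenitors alone. In sorted ACI luminal progenitor-like cells CSN3 had 8434 CPM, and the next marker, KIT, had 242. Vehicle rats had 600, 610, 137 and 737 without E2 and 767, 1507, 1407 and 1654 with E2 and tumors, without overlap, for a change of 1.54 (adjusted p = 0.129).

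TGFB1 of CD45+ cells in tumor-free TGFBRi-treated rats had 2094, 2403 and 2430 normalized read counts without E2 and 9041, 5410, 6737 and 9042 with E2. The groups did not overlap, and the change was 1.68 (SE 0.42, limma adjusted p = 0.0274), where 5.58% of genes were called. It was lost without A4-10 (adjusted p = 0.104), A4-15 (0.0619), A4-20 (0.0889), A4-24 (0.0647), A4-4 (0.0707) or A4-40 (0.0847). Macrophage markers were 136 to 458 CPM with E2 and 99.6 to 111 CPM without, and Ptprc 946 to 1154 and 1111 to 1233 CPM, and their part was not tested. In vehicle rats the values were 2888, 3246, 3615 and 5099 without E2 and 8478, 9033, 4270 and 5452 with E2, which overlapped (change of 0.84, adjusted p = 0.397). Of the 23 pathway genes 2 rose with E2 in the TGFBRi-treated rats, where 4.26% of all genes rose, PMEPA1 (1.88) and ITGB8 (1.86), a subunit of an integrin that frees latent TGFβ.

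NMU tumors differed from the glands of the same tumor-bearing rats mainly in the CD45+ sort. Of 12 ligand tests 6 passed limma's threshold, 1 higher and 5 lower in the tumor, against 26.9% of all gene tests. Tumor CD45+ cells had less TGFB2 and TGFB3 than gland CD45+ cells. In vehicle rats TGFB2 had no read in 2 of 3 tumor CD45+ samples and 2.10 CPM in the third, against 16.7, 20.6 and 21.9 CPM in the glands (fitted log2 difference of -3.84 on CPM plus 1, SE 0.58, limma adjusted p = 9.39e-06), and TGFB3 had 5.08, 0.685 and 5.02 against 12.5, 11.8 and 41.3 CPM (-2.28, SE 0.54, adjusted p = 0.00214). Neither pair of groups overlapped. After TGFBRi TGFB3 was lower by 3.04 (adjusted p = 4.43e-05) and TGFB2 by 1.98 (adjusted p = 0.00710, but 0.0993 without rat D2N and 0.111 with edgeR). Fibroblast markers were 6960 to 27573 CPM in the gland and 220 to 2385 CPM in the tumor CD45+ sorts of these rats, and Ptprc 48.3 to 255 and 166 to 1225 CPM. Their part in the ligand differences was not tested. Of the 23 pathway genes, 9 were lower and 2 higher in the tumor sort of vehicle rats, where 14.2% of all genes were lower, and 16 were lower and 1 higher in TGFBRi-treated rats, where 23.5% were lower, led by LTBP4 (-5.87 in vehicle rats) and THBS1 (-8.41 after TGFBRi).

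Tumor EPCAM+ cells, the epithelial sort of tumors, were set against the luminal sort of the gland, which was gated by other markers. TGFB1 had 15.0, 14.9 and 14.8 CPM in tumors of vehicle rats and 3.88, 0.743 and 4.20 CPM in their luminal cells. The groups did not overlap, with tumors higher by 1.41 (SE 0.49, limma adjusted p = 0.0287), but this did not pass without rat C2N (adjusted p = 0.0760) or C2R (0.332). With 1 rat left out the difference ran from 0.88 to 1.73. After TGFBRi, TGFB3 was lower in tumor EPCAM+ cells by 2.10 (SE 0.54, adjusted p = 0.00482, and 0.0503 without rat D4R). In vehicle rats TGFB3 had 55.8, 89.6 and 53.4 CPM in tumor EPCAM+ and 20.1, 19.2 and 117 CPM in luminal cells, which overlapped. The fitted difference on the TMM scale was -0.12 (limma adjusted p = 0.891), although the mean CPM was higher in tumors (66.2 against 52.04). Whether the tumor difference itself varied with TGFBRi was not tested. Fibroblast markers in the EPCAM+ sorts summed to 9730 to 78038 CPM.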

How the data were processed

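RNA was measured in 202 bulk samples of sorted cells and in 39 tables of single cells. The authors aligned bulk reads to rn6 with STAR 2.5.1b, counted them on RefSeq genes with HTSeq without strand, and deposited normalized values (the signal of a gene, counts divided by a DESeq2 1.30.1 size factor). Single-cell files hold UMI counts that the authors made with Cell Ranger (4.0.0 and 7.0.0 in the submitters' processing notes) and had filtered. Whole reads were recovered from all 2526805 bulk values above 0 within a tolerance of 0.001, with a less certain step in 7 samples. Rows that named no gene (23.08 to 42.5% of reads in 85 samples) were left out.

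Bulk groups were compared by limma 3.58.1 (trend, robust) on log2(value + 1), over genes with a sum of 10 or more, all groups of a fraction sharing 1 fit. Fold changes on this scale understate those of low genes. Sorts and tumors were compared on TMM-scaled CPM of the recovered reads. They came from the same rats, but the main fits had no term for the rat. A block by rat was used only as an alternative. Single cells were clustered without the ligands (scanpy 1.11.5, leidenalg 0.10.2, 2000 variable genes, 30 principal components, 20 neighbours, resolution 0.8), summed per rat (at least 10 cells) and class and tested by edgeR 4.0.16 (quasi-likelihood, TMM). SEs in single cells came from DESeq2 1.42.0 under R 4.3.3. Adjustment was by Benjamini-Hochberg over all genes tested. p-values measure the spread between rats. Intervals were not computed from reads, and depth limits only low levels.

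Clusters were named from marker lists by cutoffs (0.25 in sorted cells, 1.0 in whole gland, at least 3 markers) set after cluster marker scores were seen, with an exception for smooth muscle (0.4) set after ligand levels were seen too. Doublets were treated only by leaving out, as an alternative, cells with markers of another compartment. Barcodes found in 2 or more libraries were 0.21% (sorted ACI), 0.55% (sorted SD) and 6.31% (whole gland). The named genes were the 3 ligands throughout, at most 4 called pathway genes per comparison by size of change, and the 5 genes most like each ligand over classes. Members, lists and tests were chosen with earlier results of these data known. The fits were tested on simulated data. Alternatives were edgeR, DESeq2, a pseudocount of 5, other low-value filters, fits of the compared groups alone, replicate blocks, no TMM, at least 30 cells per rat, no mixed cells, thinned cells, and each rat left out. Responder labels of some NMU rats were not used. The 4 parts of rat A4-15 were averaged. Animal numbers shared across arms were not used as pairs in the main fits: in no comparison did every pair's deviations correlate above 0.1. In pericyte-, smooth muscle- and vascular endothelium-like cells, though, 2 of 3 vehicle rats correlated best with their own number. So few pairs cannot exclude pairing.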

Additional observations from a re-analysis of the deposited data

Results flagged for a closer look

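Single rats stood apart in 9 of 111 tests, each of 1 ligand in 1 group of 4 or 6 rats. The tests share rats, and some cell groups lie within others, so no rate by chance is set beside this count. In the adult virgin vehicle basal sort, rat C_N1N had 954.009 normalized read counts of TGFB1 (the nearest other rat 469.71) and 947.643 of TGFB2 (338.433). Among CD45+ samples of parous TGFBRi-treated rats, D_P2R had 9731.139 of TGFB1 (1814.814) and D_P2N 793.975 of TGFB3 (311.137). Rat C7N had 814.364 of TGFB3 in the CD45+ sort of SD vehicle rats (209.732), and A4-16 had 4.756 of TGFB2 in the CD45+ sort of rats with E2 that stayed tumor-free on TGFBRi (52.723). In sorted single cells rat SD13 stood apart among the TGFBRi-treated SD rats in 3 groups, with 36.084 CPM of TGFB3 in the basal sort (nearest 10.529), 176.148 CPM of TGFB3 in luminal progenitor-like cells (104.891) and 24.661 CPM of TGFB1 in the luminal sort (14.638).

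The TGFBRi effect on TGFB3 of luminal progenitor-like cells differed between experiments, by 2.4807 on the log2 scale between whole SD gland and sorted SD cells (edgeR adjusted p = 6.13e-04) and by 2.6334 between whole SD gland and sorted ACI cells (adjusted p = 3.83e-05). Both comparisons use the same whole-gland rats.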

How the results depend on the processing

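No ligand test that was called changed sign in any refit. Alternative values were listed for ligand tests called in the main fit or in at least 1 refit, not for all ligand tests. Of these values, 536 stayed on their side of the threshold, 26 passed it and 80 no longer did. In the 35 bulk comparisons of TGFBRi with vehicle or of tumor-free with tumor-bearing treated rats, calls numbered 2 in the limma fit (1 of each kind), 6 with DESeq2 (5 against vehicle), 1 with edgeR (0 against vehicle), 2 with the replicate block in adult rats and 1 to 3 with 1 rat left out. Differences of effect had 3 calls with DESeq2, days 2 with DESeq2 and 2 with the compared groups alone, and parity 1 with DESeq2 and 0 to 1 with 1 rat left out, each against 0. E2 had 2 calls, 1 with edgeR and 1 to 2 with 1 rat left out. Sorts had 26 calls (24 to 27 with 1 rat left out, 26 with the replicate block) and tumors 6 (5 to 6, and 6 with the block). Single cells had 13 calls, 8 with the replicate block and 9 to 14 with 1 rat left out. In whole glands that block keeps 3 vehicle and 3 TGFBRi-treated rats of the same numbers and drops the other treated rats. Under it calls were lost for TGFB1 (adjusted p = 0.256) and TGFB2 (0.167) of luminal progenitor-like cells, TGFB1 of fibroblast-like cells (0.152), TGFB2 of vascular endothelium-like cells (0.187) and TGFB3 of smooth muscle-like cells (0.309). Whether shared numbers mark pairs is not known, and fewer rats were fitted, so the reason for these losses cannot be told. Thinning cells to 1000 UMIs moved the share of vehicle NK-like cells with TGFB1 from 65.12 to 47.14%, of pericyte-like cells with TGFB2 from 15.98 to 3.98% and of luminal progenitor-like cells with TGFB3 from 14.04 to 1.98%. Between neighbouring classes 8 of 36 steps passed, and 9 without mixed cells. Group means of CPM had the direction of the fit in 99 of the bulk TGFBRi tests (3 ligands in 35 comparisons). Low levels limit TGFB2 and TGFB3 in leukocytes, where a few reads or UMIs set a value.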
